A study of Mus musculus with 2 samples.

Results

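The mouse miRBase entries miR-3963 (mmu-miR-3963) and miR-5099 (mmu-miR-5099) are 2 of the 1907 mature microRNA (miRNA) names counted in 2 small RNA libraries of Dicer knockout embryonic stem cells. They were chosen by name from the entries numbered above 1000, selected on their high counts in both libraries, so their level and rank are given as a description and not tested. Both libraries carry the Dicer knockout. The labels give for both the strain background 129/Ola and the stage E14, and describe blastocyst-derived cells that were grown with serum and LIF, a cytokine that keeps them undifferentiated. The titles number the libraries 1 and 2, and the descriptions name them C1 and H11, without saying whether these are separate clones or cultures. Differences between the libraries therefore measure only the spread between these samples, which may be technical. No Dicer-containing sample was analysed here.

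Most miRNAs are made in steps: Drosha cuts a hairpin out of a primary transcript, Dicer removes the loop of the hairpin, and one strand of the resulting duplex is loaded into an Argonaute protein. The seed, bases 2 to 8 of the loaded strand, is the main determinant of which mRNAs are bound. A few hairpins are known to mature without Dicer or without Drosha, and small RNA libraries also capture short pieces of other RNAs. Entries with high miRBase numbers were mostly annotated from sequencing data, later than the classical miRNAs. Neither miR-3963 nor miR-5099 has an arm suffix (5p or 3p) in its name, so each is listed as a single product of its hairpin.

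The sequences of both entries are shown first, because they define what was counted. They come from RefSeq (GRCm38.p6, the assembly also called mm10), which held a mature sequence for 1623 of the 1907 names. For miR-3963 it gave a mature sequence at chr3:151023839-151023857, minus strand, and a hairpin at chr3:151023792-151023862. For miR-5099 the hairpin at chr12:36816205-36816278, plus strand, was used. Capitals mark the seed in the first line, the mature sequence in the second, and in the third a stretch described further on.
miR-3963 mature: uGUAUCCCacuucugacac
miR-3963 hairpin: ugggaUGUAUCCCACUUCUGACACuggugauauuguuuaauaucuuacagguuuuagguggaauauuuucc
miR-5099 hairpin: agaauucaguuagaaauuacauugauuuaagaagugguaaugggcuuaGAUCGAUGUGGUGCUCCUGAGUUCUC

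The mature miR-3963 is 19 bases long and occupies bases 6 to 24 of its 71-base hairpin, on the 5′ side. It is short for a miRNA. Of 1527 mature sequences that could be placed in their hairpin, 0.982% were shorter, and the median length was 22 bases. No other of the 1623 entries with a sequence had its seed, and 0 others held those 7 bases at any position. A seed that no other entry shares is common in this table, at 72.3% of entries. The 7 other sequences available among the 10 most abundant entries each had a different seed again, shown in capitals here because the results compare counts of these entries with those of miR-3963 and miR-5099.
miR-6240: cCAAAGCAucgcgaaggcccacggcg
miR-5126: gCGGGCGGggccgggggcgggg
miR-6236: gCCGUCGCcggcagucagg
miR-182-5p: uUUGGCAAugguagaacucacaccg
miR-183-5p: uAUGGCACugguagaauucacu
miR-21a-5p: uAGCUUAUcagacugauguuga
miR-293-5p: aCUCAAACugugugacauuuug

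The late-numbered sequences in this set differ from miR-3963 in base composition. G and C make up 47.4% of the mature miR-3963, against 69.2% of miR-6240, 78.9% of miR-6236 and 100% of miR-5126. The 4 low-numbered arms lie between 36.4% and 48%, a range that includes miR-3963.

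The entry miR-3963 had 14612 counts in library 1 and 9512 in library 2, and it ranked first in both. Library totals were 45222 and 37476 counts. In library 1 the share of miR-3963 was 32.3% (95% Wilson interval 31.9 to 32.7). In library 2 it was 25.4% (24.9 to 25.8), which gives 28.8% ± 4.90 (SD, n = 2). The library 1 value is the higher of the pair, and the intervals do not overlap. These intervals cover counting error only, because no molecular identifiers are mentioned and amplification copies may be included.

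The entry miR-5099 had 2996 counts in library 1 and 2641 in library 2, ranking 6 and 5. In library 1 its share was 6.63% (Wilson interval 6.40 to 6.86). In library 2 it was 7.05% (6.79 to 7.31), which gives 6.84% ± 0.298 (SD, n = 2). Here the intervals overlap. Together the pair made up 38.9% of library 1 (38.5 to 39.4), and in library 2 they made up 32.4% (32.0 to 32.9).

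The place of each entry in the order of mean share was compared with its neighbours. The next entry below miR-3963, miR-6240, was lower by 17.6 percentage points in library 1 and by 6.61 in library 2. The gap was present in both libraries, but its size differed, at 12.1 ± 7.78 points (SD, n = 2). Just above miR-5099 stood miR-6539, by 1.87 points in library 1 and 1.10 in library 2. Just below it stood miR-182-5p, an arm of the miR-183 cluster known from sensory cells. The order of miR-5099 and miR-182-5p turned over between libraries. The share of miR-5099 minus that of miR-182-5p was -1.20 points in library 1 and 1.34 points in library 2. Their mean shares therefore do not differ beyond the spread of the libraries.

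**Figure D1:**
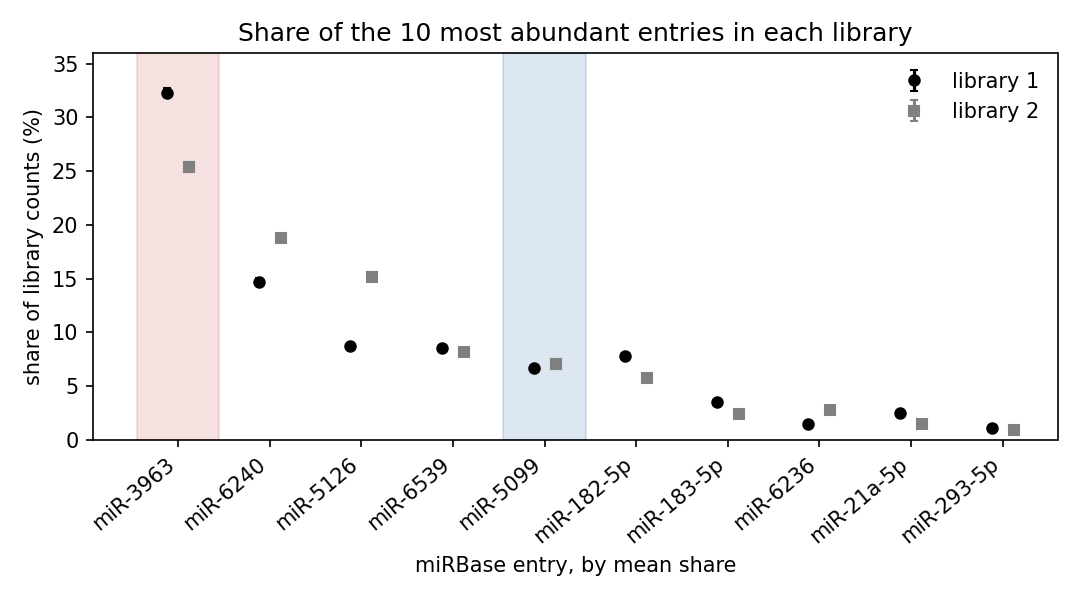
Share of library counts (%, vertical axis) of the 10 entries with the highest mean share, with a circle for library 1, a square for library 2, and bars for 95% Wilson intervals, mostly smaller than the symbols. The shaded columns are miR-3963, at 32.3% and 25.4%, and miR-5099, at 6.63% and 7.05%; miR-5126, the third column, is at 8.73% and 15.2%.

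Entries with nearby miRBase numbers were examined next. Of the 11 other entries numbered within 50 of miR-3963, 0 had a count in either library. Over all late-numbered entries, 88 of 1064 had a count, so a 0 among 11 is near the background. A count of 0 allows a share of up to 0.00663% in library 1 and 0.00801% in library 2. Of the 37 other entries numbered within 50 of miR-5099, 6 had a count and 4 had at least 10 counts in both libraries, where 15 of all 1064 late-numbered entries did. Those 4 were miR-5126, with 3946 and 5678 counts, miR-5121, with 268 and 238, miR-5100, with 143 and 117, and miR-5122, with 46 and 40. The number next to miR-5099, miR-5100, had a share of 0.314% ± 0.00284 (SD, n = 2).

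Shares fell steeply below the leading late-numbered entries. The 6 late-numbered entries among the 10 most abundant ended with miR-6236, at 2.10%, and the seventh late-numbered entry, miR-5121, was at 0.614%. The remaining 1058 entries numbered above 1000 together held 1.99% ± 0.00315 (SD, n = 2), less than miR-5099 alone.

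Entries known for maturing without Dicer, or without Drosha, gave few counts, which is usual for entries of this table. The entry miR-451a, which Argonaute 2 cuts without Dicer, had 0 counts in both libraries. For miR-320-3p the counts were 5 and 10 in libraries 1 and 2, and for miR-484 they were 5 and 2. The 13 listed names also take in miR-451b and arms of miR-702, miR-877, miR-1224 and miR-1981. Together the 13 names summed to 14 counts in library 1 and 18 in library 2. The list pools both kinds, so this sum does not measure maturation without Dicer. Of the 13, 6 had a count and 0 had at least 10 counts in both libraries. As background, 345 of 843 entries numbered 1000 or below and 88 of 1064 late-numbered entries had a count. Among miRNAs that mark embryonic stem cells, 12 of 18 arms of miR-290 to miR-295 had at least 10 counts in both libraries. Over all entries numbered 1000 or below, 65 of 843 did. The 18 arms held 3.43% ± 0.271 of all counts (SD, n = 2), while miR-302 with miR-367 had 4 counts in each library. Counts of miRNAs carry no value for Dicer mRNA, so its absence was not checked here.

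The libraries were compared by Fisher's exact test, two-sided, of each count against the rest of its library, with Benjamini-Hochberg adjustment over the 129 entries that had at least 10 counts in total. With 1 library on each side, this compares 2 libraries and not conditions, and there is no replicate check. The share of miR-3963 was lower in library 2, at 0.786 times that of library 1 (exact 95% interval 0.765 to 0.806, Fisher's exact test, adjusted p = 2.17e-104). The difference for miR-5099 did not pass, at 1.06 times (1.01 to 1.12, Fisher's exact test, adjusted p = 0.0819). Neither entry differed by 2-fold. Over all tested entries, 25 passed the adjusted threshold of 0.05, a background of 19.4%, with 10.1% higher in library 1 and 9.3% higher in library 2. With a minimum of 2-fold as well, 10 passed, or 7.75%. Passing without the fold minimum was usual at high counts: 7 of the 9 entries with at least 1000 counts in total did so, and 0 of the 9 reached 2-fold.

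On the log2 scale, library 2 against library 1, the value was -0.35 for miR-3963 and 0.09 for miR-5099. Among the 33 other entries with at least 100 counts in total, 12 lay below miR-3963 and 21 above it. For miR-5099, 24 lay below and 9 above. With both entries left out, the median was -0.28 over the 24 entries numbered 1000 or below and 0.20 over the 8 late-numbered ones. The value of miR-3963 was closer to the first median, and that of miR-5099 was closer to the second. Both groups spread widely and overlapped, so neither value assigns an entry to a group. The low-numbered ones ran from -1.15 (miR-30d-5p) to 0.81 (miR-127-3p), the late-numbered ones from -0.88 (miR-1949) to 0.92 (miR-6236). These medians are a description, and no difference between them was tested.

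**Figure D2:**
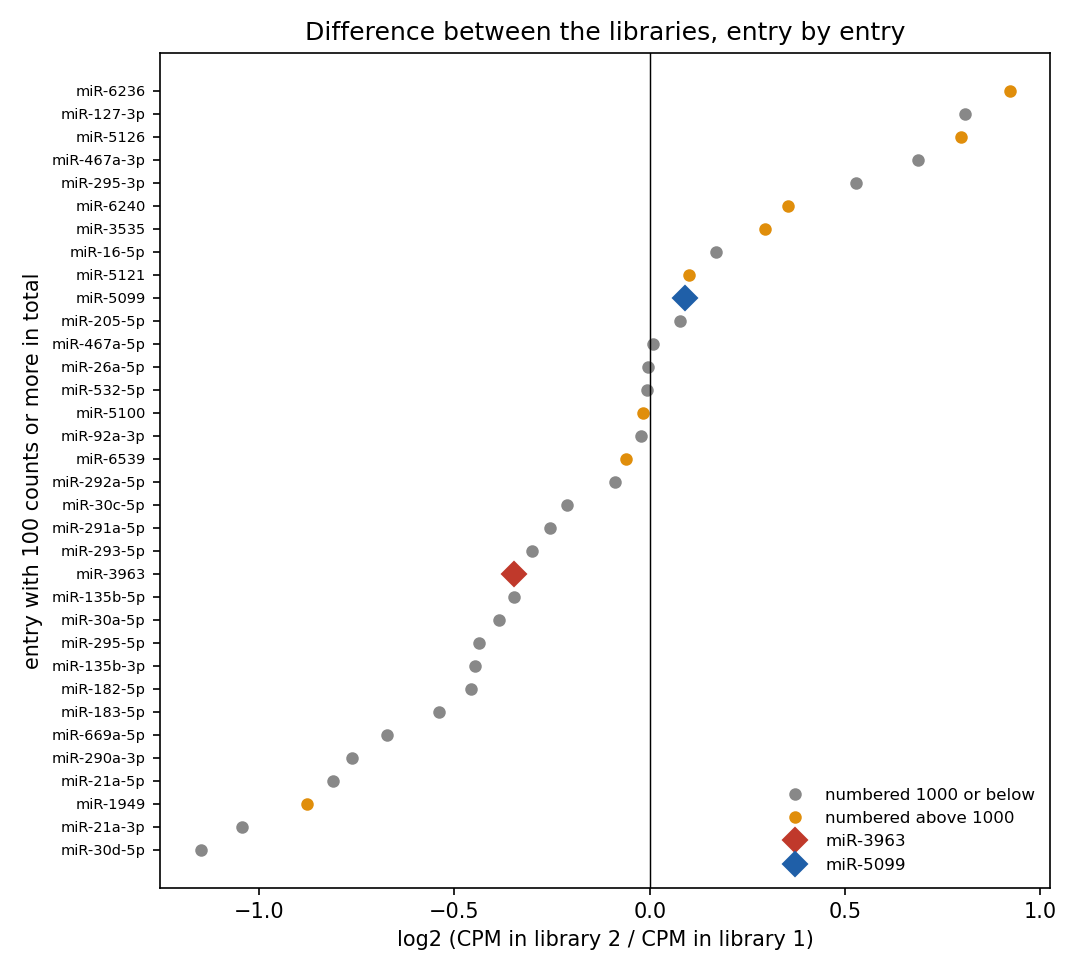
Difference between the libraries for each entry with at least 100 counts in total (horizontal axis, log2 of CPM in library 2 over CPM in library 1; 1 point per entry, sorted). The red diamond, miR-3963 at -0.35, stands among low-numbered arms, and the blue diamond, miR-5099 at 0.09, stands next to miR-5121 and miR-205-5p.

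The 3 entries closest to each member in this log2 value were taken from 32 others, a likeness that rests on 2 libraries only. For miR-3963 they were miR-135b-5p at -0.35, with 63 and 41 counts, miR-30a-5p at -0.39, with 71 and 45, and miR-293-5p at -0.30, with 483 and 325. For miR-5099 they were miR-5121 at 0.10, miR-205-5p at 0.08, with 239 and 209 counts, and miR-16-5p at 0.17, with 118 and 110.

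A share depends on what else is in the library, so the difference was also computed on 5 other scales. For miR-3963 it was negative on all 6, between -0.49 on the total without both entries and -0.041 on the total over entries numbered 1000 or below. On the latter scale it no longer passed (Fisher's exact test, adjusted p = 0.366). That scale moved every log2 value by 0.31 relative to the table total, and on it miR-5099 stood at 0.40 (Fisher's exact test, adjusted p = 7.26e-18). On the total without both entries, which moved every value by -0.15, miR-5099 turned to -0.057 (Fisher's exact test, adjusted p = 0.384). The direction of miR-5099 between the libraries thus depended on the scale.

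**Figure D3:**
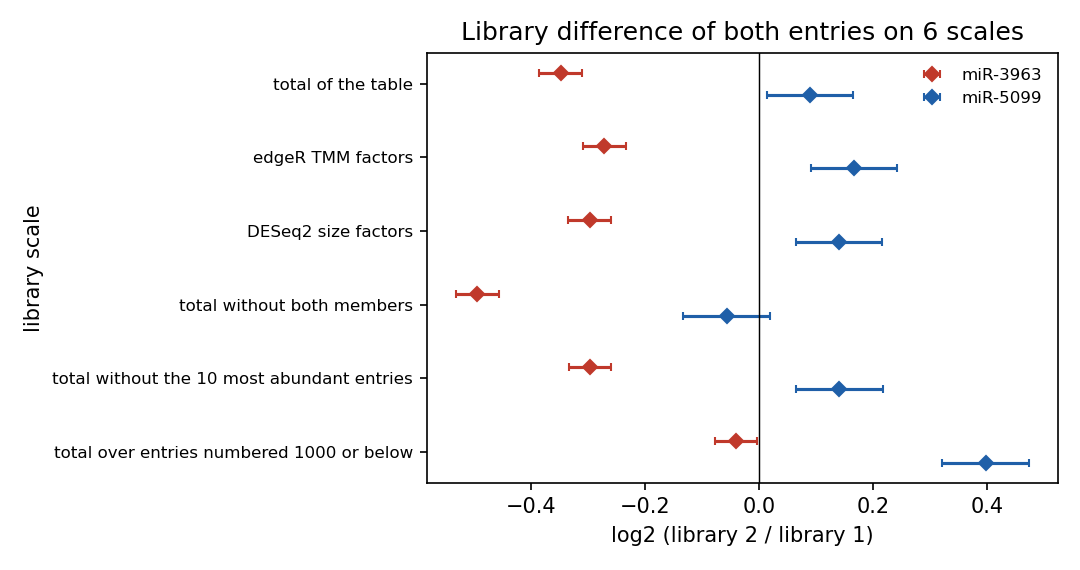
Log2 of library 2 over library 1 for miR-3963 (red) and miR-5099 (blue) on 6 library scales, with exact 95% intervals. The intervals cover the counting error of the entry alone and take the totals of each scale as fixed. On the total over entries numbered 1000 or below, the red interval (-0.078 to -0.003) therefore stays on the negative side although the test did not pass. The red points run from -0.49 to -0.041 and the blue points from -0.057 to 0.40. A change of scale moves both points by the same amount, so the gap of 0.44 between them is fixed by arithmetic.

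The ratio of one entry to another within a library needs no scale. There were 4.88 counts of miR-3963 for each count of miR-5099 in library 1 (exact 95% interval 4.69 to 5.07). In library 2 there were 3.60 (3.45 to 3.76), and both libraries averaged 4.24 ± 0.902 (SD, n = 2). The ratio changed by -0.44 on the log2 scale (exact interval -0.52 to -0.35, Fisher's exact test, two-sided, p = 3.21e-24). The libraries thus differed in this ratio by more than counting error, if each read is taken as an independent draw. Amplification copies may be included, and neither the interval nor the test allows for them.

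The same ratios were formed with the other 8 of the 10 most abundant entries, as a description. Relative to miR-293-5p, an arm of the stem cell cluster miR-290 to miR-295, miR-3963 had 30.3 counts per count in library 1 and 29.3 in library 2, a log2 change of -0.05 with an exact interval of -0.26 to 0.16 that includes 0. Relative to miR-182-5p it had 4.13 and 4.45, a log2 change of 0.11 (0.02 to 0.20). Relative to miR-183-5p the log2 change was 0.19 (0.07 to 0.32), and relative to miR-21a-5p, a widely expressed miRNA, it was 0.46 (0.31 to 0.62). Relative to the 4 late-numbered entries, miR-3963 was lower in library 2 each time. Its log2 change was -0.29 against miR-6539, -0.70 against miR-6240, -1.14 against miR-5126 and -1.27 against miR-6236.

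For miR-5099 the order of the 8 changes is the same by arithmetic, and each value is higher by the 0.44 that separates both entries. Against the 4 low-numbered arms its log2 change was positive each time, from 0.39 against miR-293-5p to 0.90 against miR-21a-5p. Against miR-182-5p the ratio went from 0.847 (exact interval 0.806 to 0.889) to 1.24 (1.17 to 1.31). Against the late-numbered entries it was 0.15 for miR-6539 (0.05 to 0.25), -0.26 for miR-6240, -0.71 for miR-5126 and -0.83 for miR-6236. Between the libraries miR-5099 thus lay between the low-numbered arms and miR-6240, miR-5126 and miR-6236, and among the other 4 late-numbered entries of the 10 most abundant, miR-6539 was nearest to it.

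The hairpins were then described from their sequence, a property that the choice of the entries did not use. In annotation release GENCODE M21 (GRCm38), 0 other genes overlap either hairpin. Mir3963 lies 47.5 kb from the long noncoding RNA gene Gm43468 on one side and 412 kb from Gm43470 on the other. Mir5099 lies 127 kb from Ispd, which encodes an enzyme of dystroglycan glycosylation, and 61.7 kb from Gm40394, a long noncoding RNA gene. No other miRNA gene lies within 100 kb of either, so neither is part of an annotated miRNA cluster of that width.

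Both hairpins are poor in G and C, at 36.6% for Mir3963 and 37.8% for Mir5099. Over 997 mouse hairpins in RefSeq the median was 51.7%, and 5.52% and 7.42% of them lay below these values. Their predicted minimum free energies were -22.5 kcal/mol for Mir3963 and -26.6 kcal/mol for Mir5099, against a median of -32.1. Per base the values were -0.317 and -0.359 kcal/mol, and a lower value, meaning a more stable fold, was found for 83.6% and 69.1% of hairpins. The share of paired bases was nevertheless above the median of 69.0%, at 73.2% and 78.4%.

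Each fold has a single terminal loop of 4 bases. Mir5099 holds 29 base pairs with a longest uninterrupted run of 16 paired bases on a strand, and Mir3963 holds 26 with a longest run of 6. Of the 19 bases of the mature miR-3963, 14 are paired in this fold, or 73.7%, against a median of 81.0% over the 1527 mature sequences.

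Among the 10 most abundant entries, 2 other late-numbered ones had a hairpin sequence. Both are richer in G and C, and their energies per base lie on either side of those of Mir3963 and Mir5099. Mir6240 has 47.0% G and C and -0.211 kcal/mol per base, and Mir5126 has 83.1% and -0.629 kcal/mol per base.

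**Figure D4:**
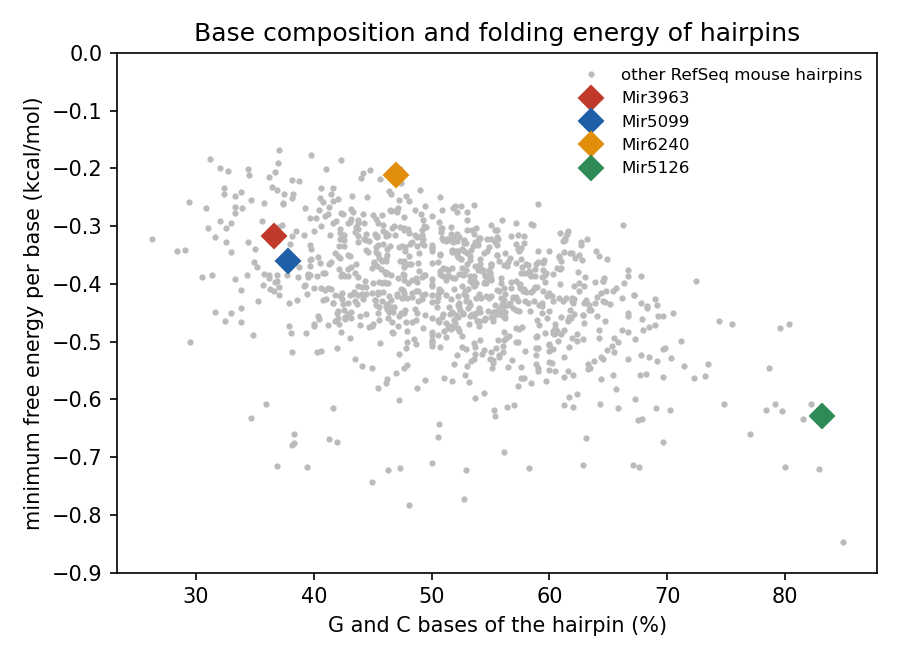
G and C content (%, horizontal axis) against predicted minimum free energy per base (kcal/mol, vertical axis) of 997 RefSeq mouse hairpins, 1 point each. Mir3963 (red, 36.6% and -0.317) and Mir5099 (blue, 37.8% and -0.359) lie close together at the low end of G and C content, apart from Mir6240 (orange) and Mir5126 (green).

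The mature miR-3963 was searched in the sense direction for runs of identical bases in the rRNA, mitochondrial rRNA and tRNA, snRNA, snoRNA and other small noncoding transcripts of GENCODE M21. The longest run was 13 bases, bases 2 to 14, in the snRNA gene Gm22558. Runs of at least that length were found for 10.4% of the 1623 mature sequences, and 27 of them were contained whole in such a transcript. For miR-6240, miR-5126 and miR-6236 the longest runs were 10, 11 and 10 bases. Nuclear tRNAs and full-length 28S rRNA are not in the set searched, so these runs say nothing about them. Over all transcripts of other genes the longest run of the mature miR-3963 was 15 bases.

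For the hairpin of miR-5099 the longest run in the small noncoding transcripts was 11 bases, and over all transcripts of other genes it was 17 bases, in Mgat4a. In RefSeq's 300-base windows around gene starts a longer run was present. Bases 49 to 74 of the hairpin, the 26 capitals in its sequence, occur unbroken at chr11:104073111-104073136, minus strand, in the window of the gene Gm42092. This was 1 of 32851 windows, and the next longest run in any window was 17 bases. A read from inside these bases could therefore be placed at least at both of these loci. How such reads were counted is not given in the sources used here. The whole genome was not searched for further copies of either hairpin. Counts are given per mature name, and the mature sequence of miR-5099 was not used here. Which bases of the hairpin its reads cover was therefore not determined. For the whole hairpin of miR-3963 the longest run was 14 bases in these windows, 13 bases in the small noncoding transcripts and 17 bases over all transcripts of other genes, in Pbrm1.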

How the data were processed

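Small RNA from total RNA of 2 Dicer knockout libraries was sequenced after TruSeq small RNA preparation, per the labels' protocols. The deposited table holds whole-number counts per mature miRNA name, not normalized, in 1 column per sample. Cutadapt, STAR, featureCounts and the build mm10 are named in the submitters' processing notes. Versions, parameters, the miRNA annotation release and the handling of reads that match several places are not given in the sources used here. Of per-sample columns, 0 were left out.

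Shares and CPM (counts per 1000000) use the table total, since the number of reads sequenced is not given in the sources used here. In library 1, 1 count equals 22.1 CPM; in library 2, it equals 26.7 CPM. Upper limits for entries at 0 correspond to 3 counts. Fisher's exact test was checked on simulated data with set changes and counting noise only. That check does not cover further spread between libraries. Intervals of ratios are exact (Clopper-Pearson on 1 count given the sum, or the conditional odds ratio). For library differences they take the totals as fixed, so they can disagree with the test. The scales were the table total, edgeR's TMM factors, DESeq2's size factors and 3 partial totals; no model was fitted with either tool. Hairpins were folded with ViennaRNA at its default settings.

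The members and lists were chosen with earlier results of these data known. Named were the members, the 10 most abundant entries, neighbours in rank, in miRBase number (within 50) and in genome position (within 100 kb), entries with the same seed, the 3 most alike in library difference, and entries matured without Dicer or Drosha. The mature sequence of miR-5099 was not used here. Versions were scipy 1.17.1, numpy 2.4.6 and pandas 2.3.3 under Python 3.11.15, DESeq2 1.42.0 and edgeR 4.0.16 under R 4.3.3, ViennaRNA 2.7.2 and matplotlib 3.10.9.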

Additional observations from a re-analysis of the deposited data

How the results depend on the processing

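The mean share of miR-3963, 28.8% of the table, was 47.2% without the 4 other late-numbered entries among the 10 most abundant, and that of miR-5099 was 11.4% in place of 6.84%. Without miR-3963 in the total, the share of miR-5099 was 9.62%. These increases follow from the smaller totals. Leaving out 1 library in turn gave 25.4% to 32.3% for miR-3963, 6.63% to 7.05% for miR-5099 and 3.60 to 4.88 for their ratio.

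The library difference of miR-3963 lost its call on the total over entries numbered 1000 or below, at -0.041, and kept its direction and call under 6 other alternatives, between -0.49 and -0.27. Among these, the changes of count filter could not move its value of -0.35 and altered only the adjustment. For miR-5099, which did not pass as reported, 5 alternatives brought it under an adjusted p of 0.05 by Fisher's exact test. The log2 values were 0.17 with TMM factors, 0.14 with DESeq2 size factors, 0.14 on the total without the 10 most abundant entries and 0.40 on the total over entries numbered 1000 or below. The fifth was testing only entries with at least 50 counts, which left the value at 0.089 (Fisher's exact test, adjusted p = 0.0435, from a range of 7.26e-18 to 0.384 over all alternatives). The direction turned on the total without both entries, at -0.057, and on the total without miR-3963, at -0.052, an alternative chosen after seeing the data. The cause of these changes was not tested beyond the change of scale itself.

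The number of entries past the threshold was 10 as reported, 25 without the fold minimum, and 8 to 14 under the other alternatives. The numbers tested differed, so these counts are not shares. They were 9 of 433 without a count filter and 8 of 61 with at least 50 counts, where 129 were tested otherwise. Pairing of the mature miR-3963 was 73.7% in the minimum free energy fold and 71.1% averaged over the ensemble of folds. The 13-base run did not change when both strands were searched. No paired analysis was possible because both libraries belong to the same group. Searching whole hairpins was also chosen after seeing the data.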
